A study of Drosophila melanogaster with 107 samples.

Results

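The comparison set γ neurons labelled as expressing Sox14 RNAi against control γ neurons, both taken 6 h after puparium formation. A gene belonged to it when its value reached at least 10 in 2 or more of the 5 libraries compared. This rule kept 6870 of the 17050 genes in the table and used no difference between the groups. The series as a whole holds 107 libraries of sorted Drosophila melanogaster brain cells, from a developmental time course and from perturbed γ neurons.

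The control group consisted of 2 libraries (A and C) from flies with the genotype y,w/+; UAS-RedStinger/+; 71G10/+, in which 71G10 is the driver and UAS-RedStinger the red nuclear reporter. The other group consisted of 3 libraries (A, B and C) whose strain is given only as Sox14 RNAi. Its driver, its reporter line and its hairpin are not named in the label, so that further differences in genetic background between the groups cannot be told apart from the knockdown. Further groups are used for comparison. Controls and RNAi-labelled γ neurons at 0 h and 12 h had 3 libraries each, and unperturbed γ neurons of the time course had 4 at 0 h and 4 at 6 h, where controls and time course carry the control genotype. Third-instar larvae gave 2 control and 3 RNAi-labelled libraries. At 6 h, 3 libraries each came from γ neurons whose strain is given only as EcR-DN or as E75 RNAi. Correlations between libraries also name EcR-DN at 12 h and E75 RNAi at 0 h, with 2 libraries each. For each library 1000 DsRed-positive cells were sorted from brains of flies reared at 25 °C, with males and females taken at random. Whether replicates came from separate animals or sorts is not stated, so p-values measure only a spread between libraries. For the perturbation libraries this spread was pooled over all 43 libraries in 16 groups, not taken from the 5 compared alone.

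The γ neurons are the earliest-born neurons of the mushroom body, the learning centre of the insect brain. During metamorphosis they prune their larval axon branches and later grow adult ones, a programme set off by the steroid hormone ecdysone acting through its nuclear receptor EcR. Sox14, an HMG-box transcription factor, is induced by ecdysone and is known as an activator of neuronal pruning. In sensory neurons it is known to drive expression of Mical, an enzyme that disassembles actin filaments.

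Values are normalized read counts that were rounded to whole numbers, and depth before normalization is unknown. The 5 libraries summed to between 1944661 and 2173735. Libraries correlated within the control group at r = 0.89 and within the RNAi-labelled group at 0.927 to 0.941, against 0.854 to 0.871 between the groups (Pearson's r across genes on log2 values, a description). Neuronal markers were abundant, and most of the short sets of markers of other cell types were low, except nrv2 and Gasp. Longer lists, described further below, held more in the controls. There 24 glial genes, mostly through Obp44a, summed to 4468 and 3722, and 47 cuticle and tracheal genes to 3726 and 4629. The general neuronal markers elav, nSyb, brp, Syt1 and fne summed to 12469 and 18276 in the controls and to 13199, 11508 and 12307 in the RNAi-labelled libraries. The 5 hemocyte markers summed to at most 6 in any of the libraries, and 4 of these 5 were at 0 in all. Among the 8 glial markers, repo, the defining glial transcription factor, reached at most 12, moody, Gs2, Eaat1, Gat and wrapper reached at most 12, and alrm at most 20. Their sum of 764 and 926 in the controls against 258, 304 and 249 came mostly from nrv2, described with the glial genes. In bulk libraries fewer cells of a type and less RNA per cell cannot be told apart.

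The transcript targeted by the knockdown was not lower at 6 h. Sox14 stood at 471 and 503 in the controls and at 774, 530 and 428 in the libraries labelled Sox14 RNAi. The groups overlapped, and the log2 difference was 0.20 ± 0.26 (SE; limma adjusted p = 0.83, n = 2 and 3). At 0 h the same transcript stood at 7347, 7888 and 7100 in controls and at 939, 1118 and 996 in RNAi-labelled libraries, a log2 difference of -2.87 ± 0.23. In the larva the controls held 6368 and 7474, and the RNAi-labelled libraries 1154, 1037 and 1093. In unperturbed γ neurons of the developmental table, Sox14 fell from a mean of 5160 at 0 h to 487 at 6 h, so that the control level at 6 h was already low. Sox14 overlaps Phm on the opposite strand in the Ensembl annotation, and the strand used in counting is not stated. Mical stood at 491 and 427 in the controls and at 419, 342 and 326 in the RNAi-labelled libraries. This difference of -0.35 ± 0.28 did not pass the test (adjusted p = 0.63; Mical was named after its values were seen).

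At both earlier stages library A of the RNAi-labelled group correlated best with another stage. The 0 h RNAi-labelled library A correlated best with a larval RNAi-labelled library (B, r = 0.894), and the larval RNAi-labelled library A correlated best with a 0 h RNAi-labelled library (C, r = 0.893). Best matches across stages were not particular to these: 2 of the 3 control libraries of 0 h and both E75 RNAi libraries of 0 h correlated best with a larval control, and 2 of the 3 EcR-DN libraries of 6 h with EcR-DN at 12 h. Each of the 5 libraries compared at 6 h correlated best with its own group. Counts of calls at 0 h are given with and without RNAi-labelled library A of that stage.

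Of the 6870 genes, 498 passed an adjusted p of 0.05 in limma on the log2(value + 1) scale. These were 197 genes higher in the RNAi-labelled libraries, 2.87% of the genes, and 301 genes lower, 4.38%. These shares are the background beside which the counts of each gene list stand. At an unadjusted p under 0.05 there were 1254. The groups did not overlap in 2661 of the 6870 genes, in either direction, and in 495 of the 498 called. A lack of overlap therefore adds little to a call. The median log2 difference was 1.99 among the genes that rose and -2.34 among those that fell, beside 0.03 over all 6870. Below 10 in both control libraries stood 237 of the genes, of which 38 were called, and below 10 in all 3 RNAi-labelled libraries stood 156, of which 76 were called. Such genes entered only through the group in which they were high. Leaving out control A gave 296 calls and leaving out control C gave 291. A fit on the 5 libraries alone gave 298.

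**Figure D1:**
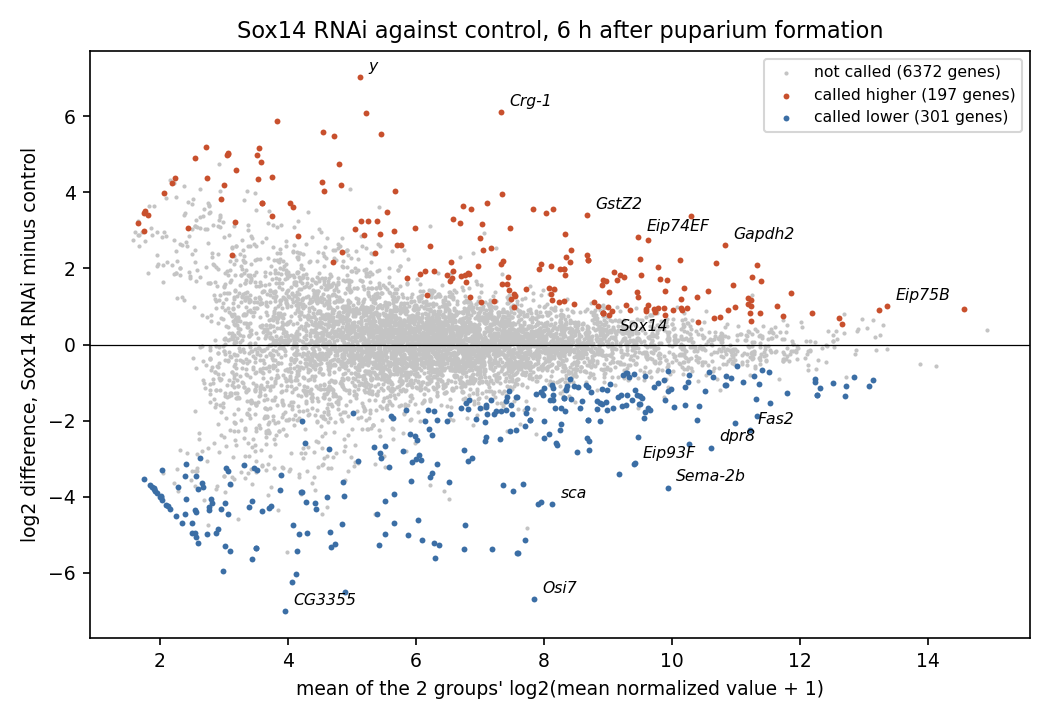
Each point is 1 of the 6870 genes, with the mean level of the groups on the x axis (log2 of normalized value + 1) and the log2 difference of the RNAi-labelled libraries minus the controls on the y axis. Red marks the 197 genes called higher, blue the 301 called lower and grey the rest. Sox14 sits near 0, while Fas2, Sema-2b and Eip93F lie among the abundant genes that fell.

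Among all genes the smallest p-value belonged to GstZ2, a zeta-class glutathione S-transferase. GstZ2 stood at 133 and 117 in the controls and at 1192, 1316 and 1492 in the RNAi-labelled libraries. Every RNAi-labelled library exceeded both controls, and the log2 difference was 3.40 ± 0.23 (adjusted p = 3.28e-14). It was a mean 10.7 times the control mean.

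The ecdysone response held calls in both directions. Of 35 measured genes of the hormone pathway, 7 rose and 6 fell, with a median of 0.24. The genes that rose encode transcription factors and a corepressor, Smr, and were Eip74EF, Hr4, Kr-h1, Hr39, Eip75B, vri and Smr itself. Those that fell were Eip93F, Eip63F-1, ImpE2, ImpL1, Edg78E and Hr51. Of these, Edg78E belongs to the list of cuticle and tracheal families too.

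Eip74EF encodes an ETS-domain factor of the early ecdysone response. It stood at 289 and 243 in the controls and at 2036, 1535 and 2085 in the RNAi-labelled libraries, which all lay above the controls, with a log2 difference of 2.81 ± 0.31 (adjusted p = 2.16e-08). Eip75B, the nuclear receptor E75, stood at 6318 and 8483 against 15015, 13879 and 15576 (1.02 ± 0.25, adjusted p = 0.0060). Hr4, a nuclear receptor that acts downstream of the early genes, stood at 637 and 943 in the controls and at 3859, 3260 and 3187 in the RNAi-labelled libraries (2.14 ± 0.49, adjusted p = 0.0031). The groups did not overlap for any of these 3. Without control A the adjusted p was 0.17 for Eip75B and 0.088 for Hr4, whereas Eip74EF was called in every alternative run.

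Eip93F moved the other way. This gene encodes E93, a transcription factor that specifies late pupal and adult fates in many fly tissues. It held 1814 and 2210 in the controls and 173, 263 and 249 in the RNAi-labelled libraries, so that all 3 were far below both controls (-3.15 ± 0.42, adjusted p = 9.73e-07). Eip63F-1, an ecdysone-induced calcium-binding protein, stood at 69 and 72 in the controls and was listed at 0, 2 and 0 (-5.63 ± 1.11, adjusted p = 6.37e-04). With all 3 RNAi-labelled libraries below 10, Eip63F-1 entered the comparison only through the controls. EcR itself stood at 308 and 347 against 331, 355 and 311, with overlapping groups (0.02 ± 0.21). Counts of this pathway depended on single libraries. They fell to 2 higher and 2 lower without control A and to 5 and 2 without control C. Without RNAi-labelled A they were 6 and 3, without RNAi-labelled C 7 and 3, and in the fit on the 5 libraries alone 4 and 3.

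Among the genes that act in pruning itself, 1 of 40 was called, and this was Fas2. Among all genes 2.87% were called higher and 4.38% lower. The list holds the Sox14 pathway, cytoskeletal effectors and cell-surface regulators of pruning, and 19 of its members lay above and 21 below the controls, with a median of -0.07. Fas2 encodes Fasciclin II, a homophilic adhesion molecule of γ axons whose loss from the membrane is known to accompany pruning. It stood at 4814 and 5522 in the controls and at 982, 1072 and 1206 in the RNAi-labelled libraries. No RNAi-labelled library approached a control, and the log2 difference was -2.25 ± 0.24 (adjusted p = 1.73e-08).

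The protein-degradation machinery, which pruning requires, was mostly uncalled. None of 32 proteasome subunits was called in limma, and Rpn11, with the second-smallest p of the list, reached an adjusted p of 0.043 without RNAi-labelled C. Of 38 genes of ubiquitin conjugation and cullin ligases, 5 fell and none rose. These were Roc2, a RING subunit of cullin ligases, the polyubiquitin gene Ubi-p63E, the conjugating enzyme Ubc2, the ligase Nedd4 and the cullin adaptor inc. Roc2 held 671 and 667 in the controls and 285, 170 and 188 in the RNAi-labelled libraries, without overlap (-1.67 ± 0.31, adjusted p = 2.69e-04, and 0.056 in the fit on the 5 libraries alone). The count of 5 became 3 without control A or without RNAi-labelled A, and 2 without control C or on the 5 libraries alone.

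In the list of axon guidance and adhesion genes 9 of 58 fell and 2 rose, while 29 members lay above and 29 below the controls, with a median of -0.02. The secreted guidance cue Sema-2b, a semaphorin, stood at 2851 and 4285 in the controls and at 180, 293 and 324 in the RNAi-labelled libraries. All 3 lay well below both controls, and the log2 difference was -3.76 ± 0.32 (adjusted p = 6.50e-11). Drl-2, a receptor of the Ryk family that binds Wnt ligands, held 625 and 800 against 80, 40 and 51 (-3.67 ± 0.48, adjusted p = 9.43e-07).

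Further called decreases of this list were those of klg, caps and Dscam2. The immunoglobulin protein klg stood at 322 and 305 against 72, 50 and 54 (-2.42 ± 0.29, adjusted p = 1.22e-07). The leucine-rich repeat protein caps stood at 268 and 384 against 49, 55 and 60 (-2.54 ± 0.42, adjusted p = 5.13e-05). For both the groups did not overlap, and both calls held in every alternative. Dscam2, a homophilic repellent, stood at 310 and 302 against 122, 151 and 85 (-1.39 ± 0.26, adjusted p = 2.30e-04), and lost its call in the fit on the 5 libraries alone (adjusted p = 0.087). That fit left 5 of the 9 genes called lower, and the 2 called higher, Ten-m and tutl, were not called without control A or without RNAi-labelled A.

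The dpr proteins and their DIP partners are immunoglobulin surface proteins that pair neurons with their targets. Of 19 measured members 5 fell and none rose, with a median of -1.77. The most abundant decrease was that of dpr8, at 3773 and 4219 in the controls and 574, 617 and 641 in the RNAi-labelled libraries (-2.71 ± 0.39, adjusted p = 4.40e-06). The other 4 were dpr9, dpr10, dpr1 and DIP-gamma, whose controls lay between 58 and 376 and whose RNAi-labelled libraries lay between 3 and 62. Without control C the call of dpr8 alone was left, and without control A or on the 5 libraries alone 3 were.

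**Figure D2:**
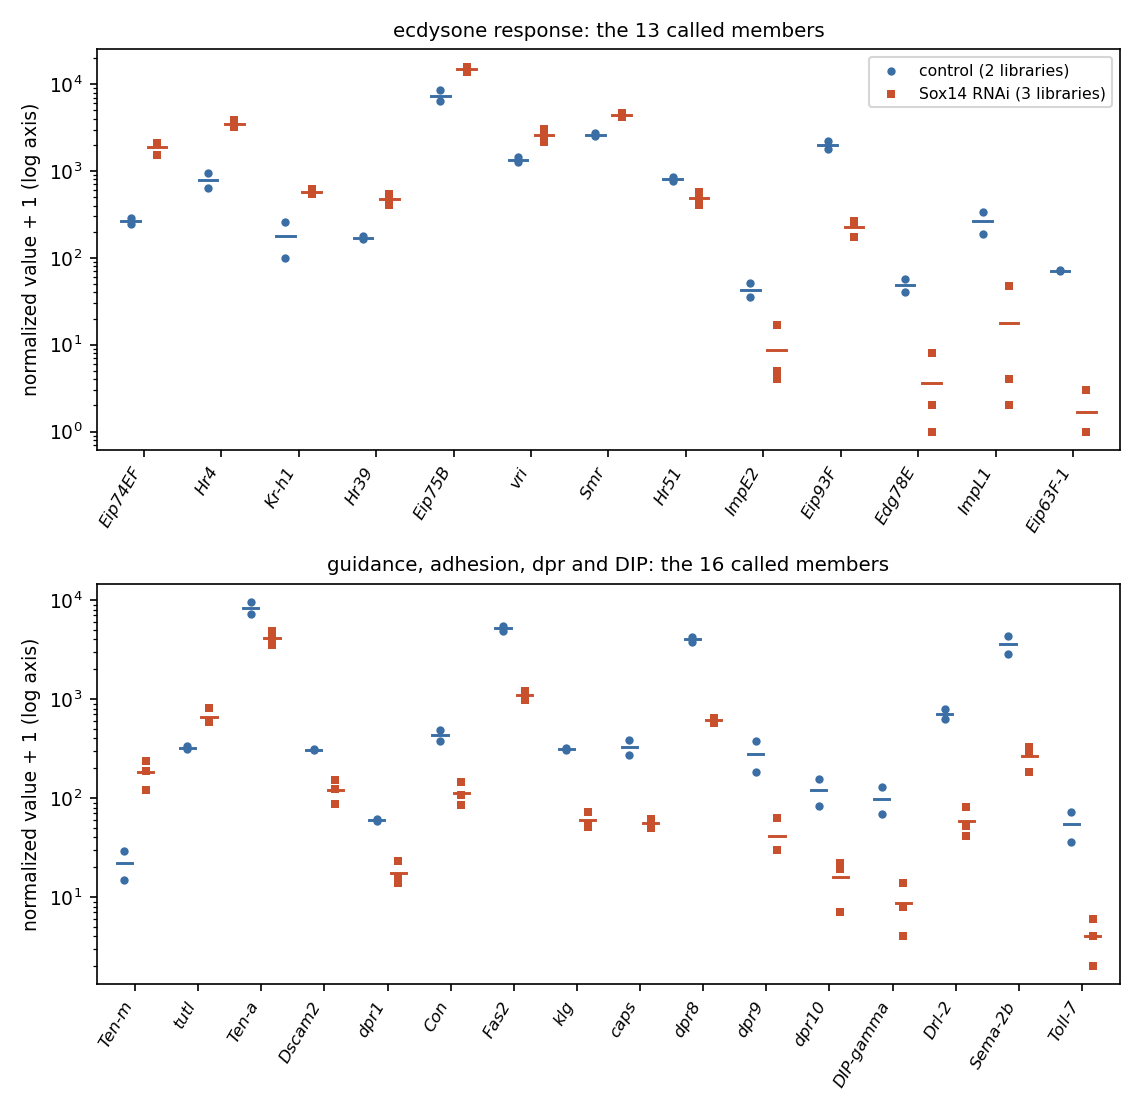
Each point is the normalized value plus 1 of a gene in 1 library (log axis), circles for the 2 controls and squares for the 3 RNAi-labelled libraries, with a bar at each group's mean. The upper panel holds the 13 called genes of the ecdysone response and the lower panel the 16 called surface genes, from the largest increase at the left to the largest decrease at the right.

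Among the gene lists, that of glycolytic enzymes had the largest share of called genes. Of 15 measured genes of glycolysis and glycogen turnover, 11 rose and none fell, with a median log2 difference of 2.09. Gapdh2, glyceraldehyde-3-phosphate dehydrogenase, stood at 687 and 784 in the controls and at 4473, 4444 and 4634 in the RNAi-labelled libraries. The RNAi-labelled libraries were close to one another and about 6.14 times the control mean (2.62 ± 0.25, adjusted p = 1.02e-09). Eno, enolase, stood at 1578 and 946 against 5744, 5412 and 4521 (2.09 ± 0.22, adjusted p = 1.0e-08). The list was not higher at 6 h alone. At 0 h 7 of the 15 were called higher, with a median of 1.13, or 2 with a median of 0.60 without library A of that stage. At 12 h 2 were called higher, with a median of 0.62, and none was called lower at either stage.

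Other enzymes of the pathway rose too. The triose-phosphate isomerase Tpi stood at 295 and 317 against 1938, 2164 and 2046 (2.74 ± 0.38, adjusted p = 3.37e-06). PyK, pyruvate kinase, stood at 80 and 72 against 320, 361 and 323 (2.12 ± 0.44, adjusted p = 0.0012). GlyP, glycogen phosphorylase, stood at 13 and 12 against 98, 149 and 144 (3.26 ± 0.54, adjusted p = 5.13e-05). None of these groups overlapped. Lactate dehydrogenase, ImpL3, rose by 2.98 ± 0.86 (adjusted p = 0.028; named after its values were seen). The calls of Gapdh2, Eno, Tpi, GlyP, Pgk and PyK held in every alternative, while the count of 11 became 7 without control A, 6 without control C, 6 without RNAi-labelled A or in the robust fit and 7 without RNAi-labelled B.

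**Figure D3:**
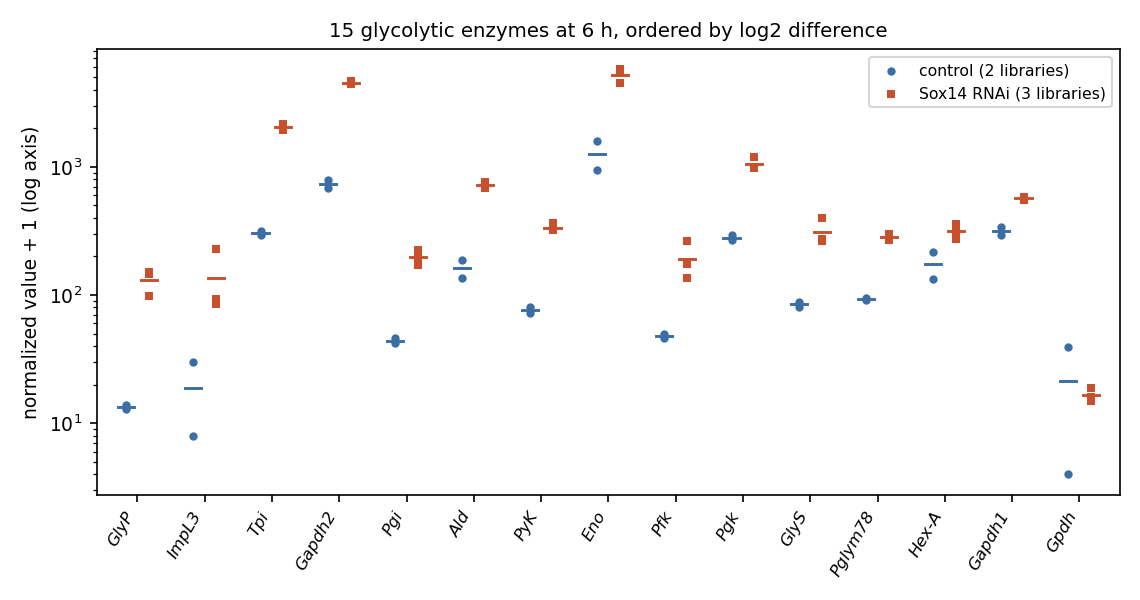
Normalized value plus 1 (log axis) of the 15 glycolytic enzymes in the 2 controls (circles) and the 3 RNAi-labelled libraries (squares), with a bar at each group's mean, ordered by log2 difference. For 14 of them every RNAi-labelled library lies above both controls, and Gpdh, at the right, overlaps. Over all 6870 genes the groups did not overlap in 2661, in either direction.

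Genes of mitochondrial energy production held almost no calls. Of 62 subunits of oxidative phosphorylation 1 fell, ND-15 of complex I, at 459 and 515 against 249, 197 and 202 (-1.17 ± 0.30, adjusted p = 0.0085), and none rose. That call was lost without control A (adjusted p = 0.050) and without control C (0.12). None of 69 mitochondrial ribosomal proteins was called in limma or in any alternative. Of 84 cytoplasmic ribosomal proteins 4 fell, RpL7, RpL26, RpL31 and RpL36, a share near the 4.38% of all genes that fell, with a list median of -0.29. Without control A and on the 5 libraries alone none of the 84 was called, under quantile normalization or the robust fit 1 was, and without RNAi-labelled A or C 2 were.

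Nutrient signalling held few calls. In the insulin and TOR list, 2 of 24 rose and 2 fell, beside 2.87% higher and 4.38% lower among all genes. Counts this small are not read as a response of the pathway. S6k, the ribosomal protein kinase activated by TOR, stood at 1392 and 1741 in the controls and at 572, 549 and 590 in the RNAi-labelled libraries (-1.45 ± 0.20, adjusted p = 1.72e-06). Pdk1, the kinase upstream of Akt, stood at 652 and 739 against 2159, 1910 and 1741 (1.47 ± 0.27, adjusted p = 2.33e-04). In both the groups were clearly apart, and both were called in every alternative. The other 2 called genes, rictor and eIF-4E, were not called without control C (adjusted p = 0.75 and 0.091).

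Neuronal identity factors held few calls, in both directions. Of 22 genes for temporal identity and neuronal transcription factors 3 fell and 1 rose, beside 4.38% lower and 2.87% higher among all genes. In value 11 lay above and 11 below the controls, with a median of -0.04, and no direction is read for the list. The BTB zinc-finger protein chinmo sets the early-born fate of mushroom body neurons. It stood at 1089 and 2306 in the controls and at 260, 285 and 343 in the RNAi-labelled libraries (-2.43 ± 0.69, adjusted p = 0.023). Mef2, a MADS-box factor of mushroom body neurons, stood at 1026 and 1134 against 319, 404 and 350 (-1.60 ± 0.41, adjusted p = 0.011). The groups did not overlap in either. The third gene that fell was pros and the gene that rose was jing, and all 4 calls were lost under 1 or more single omissions. The adjusted p without control C was 0.31 for chinmo, 0.12 for Mef2 and 0.25 for pros, and without control A 0.31 for jing. In the robust fit and with only control and Sox14 RNAi libraries none of the 22 was called.

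In the list of Kenyon cell identity and learning genes 7 of 31 fell and 2 rose, with a median of -0.18. The memory gene rad rose from 885 and 967 to 2742, 2413 and 2271 (1.41 ± 0.19, adjusted p = 1.57e-06). The neuropeptide gene sNPF held 109 and 183 against 553, 640 and 947 (2.29 ± 0.31, adjusted p = 1.72e-06, and 0.056 on the 5 libraries alone). Pka-R1, a regulatory subunit of protein kinase A, fell from 2315 and 2184 to 962, 1019 and 894 (-1.23 ± 0.26, adjusted p = 0.0014). The list shares Fas2, Mef2 and klg with those above. The count of 7 became 4 without control A or RNAi-labelled A and 3 without control C or in the robust fit.

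Receptors for transmitters fell more often than they rose, at 8 against 2 of 33, with a median of -0.32. The acetylcholine receptor subunit nAChRalpha1 stood at 1073 and 1221 in the controls and at 481, 417 and 458 in the RNAi-labelled libraries (-1.34 ± 0.23, adjusted p = 1.20e-04). The octopamine receptor Octbeta3R stood at 46 and 39 against 453, 315 and 409 (3.17 ± 0.53, adjusted p = 5.46e-05). Neither pair of groups overlapped. Another subunit, nAChRalpha7, stood at 140 and 92 against 715, 1089 and 826 (2.92 ± 0.66, adjusted p = 0.0032, and 0.082 without control C). The 8 decreases became 5 without control A or RNAi-labelled C and 2 without control C or on the 5 libraries alone.

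Channels moved in both directions, with 5 of 34 higher and 4 lower. The gene unc79, a subunit of the sodium leak channel complex, stood at 113 and 120 against 660, 552 and 354 (2.11 ± 0.34, adjusted p = 4.24e-05). The potassium channel Elk held 37 and 141 against 949, 701 and 998 (3.57 ± 0.59, adjusted p = 4.83e-05). The potassium channel Shaker, Sh, fell from 4498 and 6670 to 1959, 2346 and 2501 (-1.28 ± 0.25, adjusted p = 4.42e-04). The groups did not overlap for these 3, and the fit on the 5 libraries alone gave an adjusted p of 0.070 for Elk and 0.072 for Sh. The 5 increases became 2 without control A or RNAi-labelled B and 3 without control C or RNAi-labelled C, and the 4 decreases became 1 without control C.

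The synaptic vesicle list held 2 increases and no decrease among 35 genes, beside 2.87% higher and 4.38% lower among all genes. Rab3, the small GTPase of synaptic vesicles, stood at 95 and 57 in the controls and at 382, 382 and 277 in the RNAi-labelled libraries (2.21 ± 0.34, adjusted p = 2.09e-05). Tomosyn, which restrains vesicle fusion, stood at 563 and 550 against 1007, 1191 and 1005 (0.93 ± 0.21, adjusted p = 0.0021). The groups lay apart for both genes. Rab3-GEF, the exchange factor that activates Rab3, is described with the other stages.

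Cytoskeletal genes gave 3 increases and 5 decreases among 61, beside 2.87% higher and 4.38% lower among all genes. Act42A, a cytoplasmic actin, fell from 3846 and 3648 to 1892, 1700 and 1928 (-1.03 ± 0.20, adjusted p = 6.37e-04). Moe, moesin, which links actin to the membrane, fell from 1702 and 1768 to 723, 853 and 816 (-1.12 ± 0.22, adjusted p = 6.34e-04). Both groups were well separated. The kinesin unc-104, which carries synaptic vesicle precursors, stood at 706 and 779 against 1843, 1776 and 1529 (1.20 ± 0.31, adjusted p = 0.011). Without control A the adjusted p of unc-104 was 0.12, and none of the 3 increases was called without control A or without control C, while RNAi-labelled A left 1 and the 5 decreases became 3 without either control.

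Other pathway lists held few calls, to be set beside the 2.87% of all genes that rose and the 4.38% that fell. In autophagy and cell death 2 of 28 fell, among them Eip93F. In endosomal sorting 2 of 36 rose and 2 fell. None of 17 TGF-beta and BMP genes was called in limma, although 14 lay above the controls, and shn passed under quantile normalization and without control C. None of 9 genes of the RNAi machinery and none of 6 sex-biased genes was called, while the male-biased RNA roX1 stood at 1630 and 3187 against 638, 2399 and 649 (adjusted p = 0.071) and passed without RNAi-labelled B (0.0012), without control A (0.048) and with the replicate letter as a block (0.039). Heat shock and dissociation genes gave 2 increases and 1 decrease among 21. Of 7 neuroblast and cell cycle genes 1 rose, E2f1, at 308 and 308 against 1079, 1197 and 1013 (1.82 ± 0.33, adjusted p = 2.27e-04). None of the 2 hemocyte, 4 fat body and 1 photoreceptor markers that belonged to the comparison was called in limma.

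Of 18 measured genes of the cuticle and tracheal families 10 fell and none rose. For 14 of the 18 at most 1 RNAi-labelled library reached a value of 10, so that they passed the filter on low values only with the controls, and nothing is read from their shared direction. Osi7, of the Osiris family, stood at 781 and 1256 in the controls and at 1, 149 and 2 in the RNAi-labelled libraries (-6.68 ± 1.59, adjusted p = 0.0052). TwdlE, a Tweedle cuticle protein, held 351 and 263 against 0, 203 and 1 (-5.36 ± 1.22, adjusted p = 0.0032). RNAi-labelled B stood out as the library that retained part of this signal. The list summed to 3726 and 4629 in the controls and to 41, 840 and 90 in RNAi-labelled A, B and C. The 10 decreases became 5 without control A, 4 without control C, 3 without RNAi-labelled A and 2 on the 5 libraries alone. Of 4 markers of trachea and epithelium, the chitin-binding Gasp moved with this list, at 133 and 292 in the controls and 1, 90 and 13 in the RNAi-labelled libraries, while btl and grh stayed at or under 23 and crb stood at 1 and 0 against 32, 48 and 33. None of the 4 was called in limma, and their part in the result was not tested. In a longer list of epithelial and tracheal markers 1 of 10 was called lower and none higher, with a median of -0.09. Among all genes 4.38% were lower and 2.87% higher. On the 5 libraries alone 1 of that list was called higher and none lower. TwdlT and RYa-R, also among the steepest decreases, overlap on the same strand and held nearly equal values, so that their reads cannot be told apart, and the same holds for CG4998 and CR45893.

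Of the 8 measured members of a glial list 2 fell and none rose. The odorant-binding protein gene Obp44a stood at 3431 and 2551 in the controls and at 313, 695 and 512 in the RNAi-labelled libraries (-2.62 ± 0.43, adjusted p = 5.13e-05, and 0.055 on the 5 libraries alone). The sodium pump subunit nrv2 stood at 736 and 899 against 257, 277 and 225 (-1.69 ± 0.43, adjusted p = 0.010, and 0.14 without control C). The whole list of 24 genes summed to 4468 and 3722 in the controls and to 725, 1201 and 949 in the RNAi-labelled libraries, and the part of glial RNA in the decreases was not tested. Of 11 markers of mushroom body neurons, which summed to 24968 and 33293 against 19397, 18700 and 20059, Mef2, Fas2 and mub fell and sNPF rose.

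Among called genes whose higher group averaged 50 or more, the largest increase was that of y, the yellow gene of body pigment, whose mutant allele is named in the control genotype. It stood at 2 and 2 in the controls and at 257, 461 and 491 in the RNAi-labelled libraries (7.02 ± 1.17, adjusted p = 5.54e-05). It was called higher at every other stage too, at 193, 93 and 79 against 0 in all 3 controls at 12 h, 17, 246 and 259 against 0, 0 and 7 at 0 h, and 183, 77 and 122 against 0 and 7 in the larva, and it was at most 5 in the 6 h libraries of the other perturbations. A difference in genetic background and the knockdown cannot be told apart here. The gene overlaps CG32816 on the other strand in the annotation. Crg-1, a forkhead transcription factor, stood at 24 and 13 against 1102, 1063 and 1790 (6.10 ± 1.02, adjusted p = 5.93e-05). The growth factor gene pyr, an FGF ligand, stood at 1 and 4 against 192, 101 and 172 (5.57 ± 1.0, adjusted p = 1.68e-04). With both controls below 10, y and pyr entered the comparison only through the RNAi-labelled libraries. Fold changes on the log2(value + 1) scale understate those of genes this low in the controls.

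The remaining genes of the 15 largest increases were CG30460, CG9541, CG12065, ana, CR46195, CG15923, CG14490, CG13924, Gbs-76A, alpha-Est9, CG8236 and CG3714, with log2 differences between 4.19 and 6.09. Gbs-76A encodes a glycogen-binding subunit of protein phosphatase 1. It stood at 3 and 1 in the controls and at 50, 76 and 54 in the RNAi-labelled libraries (4.41 ± 0.86, adjusted p = 5.71e-04). The largest decrease was that of CG3355, at 99 and 260 against 0, 0 and 1 (-7.0 ± 1.02, adjusted p = 6.75e-06). CG15130 held 77 and 47 in the controls and was listed at 0 in all 3 RNAi-labelled libraries. Below 10 throughout 1 group, Gbs-76A, CG3355 and CG15130 entered the comparison only through the group in which they were high. The other steep decreases were CG30053, CG14107, CG34393, rost, obst-A, CG16886 and CG12164. Of the 30 genes at these extremes, those lost without control A included CG30460 (adjusted p = 0.20), CR46195 (0.12), ana (0.086), CG13924 (0.075), RYa-R (0.065), TwdlE (0.052) and rost (0.074). Those lost without control C included CG14490 (0.20), CG8236 (0.54), CG3714 (0.17), CG13924 (0.17), Osi7 (0.080), TwdlT (0.081), RYa-R (0.10), rost (0.052) and obst-A (0.052).

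The stages on either side show whether genes called at 6 h were also called earlier or later. Neither shares a library with the 6 h comparison. At 0 h 4.21% of the 6870 genes (289) were higher and 6.00% (412) lower in the RNAi-labelled libraries, and without library A of 0 h 2.79% (192) and 5.02% (345). At 12 h 1.0% were higher and 0.815% lower. Of the 197 genes that rose at 6 h, 49 (24.9%) were also higher at 0 h and 4 were lower, and without library A of 0 h these counts were 42 and 2. At 12 h 27 of the 197 (13.7%) were higher and none was lower. Of the 301 genes that fell at 6 h, 119 (39.5%) were lower at 0 h and 8 were higher, or 125 and 2 without library A. At 12 h 36 of the 301 (12.0%) were lower and none was higher.

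The difference between stages was tested directly. The effect at 6 h exceeded that at 0 h in 1.57% of the genes (108) and lay below it in 1.54% (106), and without library A of 0 h these counts were 74 and 64. Against 12 h, 0.378% (26 genes) were higher and 0.975% (67) lower. Leaving out control A or control C of 6 h lowered the 0 h total from 214 to 107 or 127 and the 12 h total from 93 to 50 or 35, and leaving out RNAi-labelled A lowered them to 129 and 57. Of the difference to 12 h, 28.0% of the calls were higher, and 43.1% under quantile normalization.

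Rab3-GEF turned from lower to higher between 0 h and 6 h. At 0 h it stood at 1071, 1119 and 1369 in controls and at 443, 462 and 355 in RNAi-labelled libraries, and at 6 h at 142 and 160 against 618, 687 and 519. The difference of the effects was 3.49 ± 0.39 (adjusted p = 1.86e-07). Dscam2 turned the other way, being higher at 0 h with 182, 120 and 193 in controls against 508, 364 and 461, before the decrease at 6 h. The difference was -2.83 ± 0.34 (adjusted p = 7.05e-07).

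GstZ2 was higher at all 3 stages, and most so at 6 h. At 0 h it stood at 1339, 1304 and 1428 against 1771, 2835 and 2724, and at 12 h at 120, 170 and 196 against 428, 335 and 435. The 6 h effect exceeded that at 0 h by 2.58 ± 0.30 and that at 12 h by 2.09 ± 0.30. The RNAi-labelled libraries of 6 h held values near those of the 0 h controls.

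Several genes differed at 6 h and not detectably at 12 h. The gene rgn stood at 25 and 34 against 270, 379 and 258 at 6 h, but at 24, 16 and 75 against 20, 48 and 29 at 12 h, a difference of effects of 3.33 ± 0.54 (adjusted p = 8.67e-04). CG42342 stood at 1263 and 1547 against 340, 353 and 565 at 6 h, and its 0 h and 12 h differences were -0.01 ± 0.21 and 0.09 ± 0.21. The adhesion gene klg stood at 151, 88 and 198 against 84, 133 and 188 at 12 h, a difference of effects of -2.31 ± 0.39. These groups overlapped at 12 h and lay apart at 6 h.

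The secreted protein gene sca was low in RNAi-labelled libraries at both early stages. It stood at 1274 and 1046 against 75, 38 and 86 at 6 h (-4.18 ± 0.41, adjusted p = 1.88e-09) and at 886, 843 and 1058 against 58, 80 and 115 at 0 h. By 12 h it stood at 3138, 2294 and 3477 against 1510, 1727 and 1565, and the effect at 6 h was lower than that at 12 h by -3.31 ± 0.56. CG44422 was lower at 6 h, at 298 and 317 against 22, 32 and 67, and higher in value at 12 h, at 76, 90 and 107 against 217, 290 and 197, a difference of effects of -4.40 ± 0.74 (adjusted p = 8.67e-04). At 0 h its library A held 1484 beside 157 and 212 in the other RNAi-labelled libraries.

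CG32432 and CG13954 acquired their difference after 0 h. CG32432 rose in controls from 175, 324 and 265 at 0 h to 1668 and 2068 at 6 h, and in RNAi-labelled libraries it stood at 206, 202 and 149 and then at 172, 187 and 167. The difference of effects to 0 h was -2.98 ± 0.41 (adjusted p = 9.38e-06). CG13954, whose values nearly equal those of the overlapping gene CG13739, stood at 889 and 1012 against 33, 37 and 119 at 6 h, and at 0 h the groups overlapped, with means of 168 and 278 (difference of effects -4.88 ± 0.63). Both were still lower at 12 h, with differences of -2.77 ± 0.27 and -1.72 ± 0.42.

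**Figure D4:**
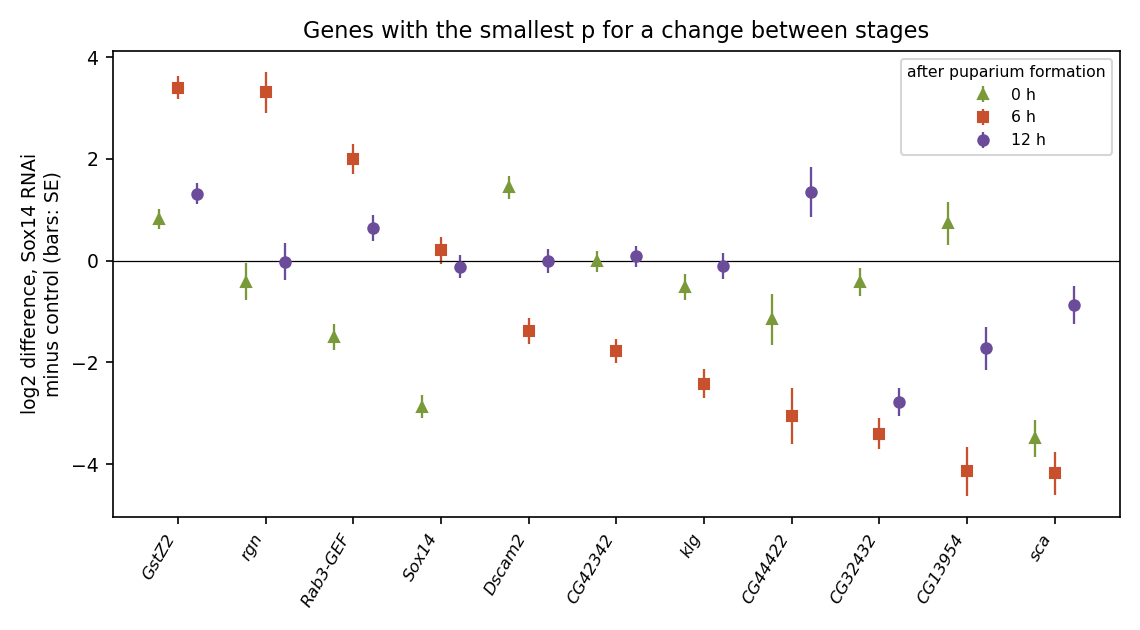
Points are the log2 differences of RNAi-labelled minus control libraries at 0 h (triangles), 6 h (squares) and 12 h (circles), with bars for the SE, for 11 genes, Sox14 and 10 others, that had the smallest p-values for a change between stages. Sox14 itself lies at -2.87 at 0 h and near 0 at 6 h and 12 h.

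The developmental table gave values of the same genes from other libraries in unperturbed γ neurons, with 4 libraries at 0 h and 4 at 6 h. Of the 6761 genes that could be tested there, 6.97% rose and 6.26% fell between these stages. Of the 186 tested genes that were higher at 6 h in the RNAi-labelled libraries, 87 (46.8%) fell in normal development and 9 (4.84%) rose. Of the 265 tested genes that were lower, 80 (30.2%) rose in normal development and 22 (8.30%) fell. The calls rest on controls of the same genotype and stage as the developmental libraries of 6 h. Genes called lower were thus favoured in advance to be high at 6 h, and those called higher to be low. These shares are a description, and nothing further is read from their size. Of the 10 cuticle and tracheal genes tested there, 8 rose in normal development, among them Osi7, TwdlT, TwdlE, CG16886 and obst-A, which were called lower in the RNAi-labelled libraries. Of the 18 genes of that list, 14 passed the filter on low values only with the 6 h controls. Such genes were favoured in advance to be high at 6 h, so nothing is read from this count.

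Eip74EF fell in development from 4614, 4845, 4772 and 4360 at 0 h to 552, 329, 459 and 406 at 6 h, and was among the genes that were higher in the RNAi-labelled libraries. Eip93F rose from 94, 248, 170 and 249 to 1307, 1414, 1414 and 1829, and was lower in them. The temporal factor chinmo rose from 85, 224, 109 and 169 to 1692, 1906, 1517 and 1915, and was lower too. These genes are examples of the pattern favoured in advance, and nothing is read from it. Other called genes did not show that pattern. Fas2 stood at 4377, 3804, 2681 and 3273 at 0 h and at 4139, 3490, 3499 and 3999 at 6 h, with overlapping groups, while klg fell in development (-2.81, adjusted p = 3.50e-08) and was lower in the RNAi-labelled libraries. Of the 15 glycolytic enzymes 1 rose and 4 fell between these stages.

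**Figure D5:**
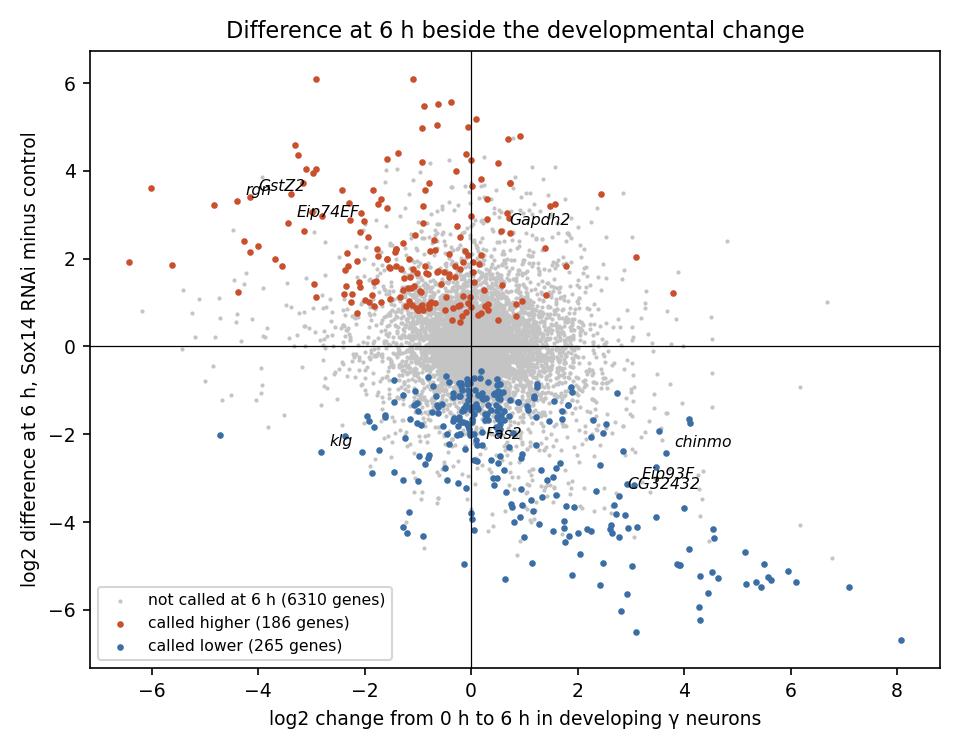
Each point is 1 of the 6761 genes tested in both tables, with the log2 change from 0 h to 6 h in unperturbed γ neurons on the x axis and the log2 difference of RNAi-labelled minus control libraries at 6 h on the y axis. The 186 genes called higher (red) lie mostly at the left, where 87 fell in development, and the 265 called lower (blue) lie more to the right, where 80 rose. The calls used controls of the same stage, so these positions are a description.

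The libraries were last set against 3 labelled EcR-DN at 6 h, from γ neurons expressing a form of the ecdysone receptor that by its name is dominant negative. The direct comparison shows how the RNAi-labelled libraries differed from these. Of the 6870 genes 3.54% were higher and 6.51% lower in the RNAi-labelled than in the EcR-DN libraries. Of the 197 genes that rose against control 74 were also above EcR-DN and 20 below it, and of the 301 that fell 125 were below EcR-DN and 1 was above it. These counts use the same RNAi-labelled libraries as the calls, so that nothing is read from their size.

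Genes with the smallest p in the direct comparison were high under EcR-DN. The actin regulator sals stood at 4078, 3245 and 4145 under EcR-DN and at 116, 175 and 99 in the RNAi-labelled libraries, beside 114 and 150 in controls (-4.90 ± 0.22, adjusted p = 1.44e-20). The potassium channel Shab stood at 2154, 1102 and 811 under EcR-DN and at 22, 29 and 47 in the RNAi-labelled libraries, beside 45 and 40 in controls (-5.28 ± 0.29). CG42322 and EcR likewise lay near the controls in the RNAi-labelled libraries, with differences of 0.01 ± 0.25 and 0.02 ± 0.21, and below EcR-DN by -3.88 ± 0.22 and -2.89 ± 0.19. EcR-DN is itself a form of EcR. Whether the EcR reads there came from the introduced form or from the endogenous gene was not tested. Unlike the genes above, Mid1 stood below the controls, at 44, 67 and 89 against 242 and 295. It was high under EcR-DN at 2540, 1446 and 1432. Sox14 itself stood at 1722, 1488 and 1512 under EcR-DN, above the RNAi-labelled libraries (-1.49 ± 0.23, adjusted p = 6.86e-06).

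The comparisons of the libraries labelled Sox14 RNAi, EcR-DN and E75 RNAi with control at 6 h share the same 2 control libraries, so their values are only set side by side. For Eip93F the log2 differences from control were -3.15, -2.58 and -3.38. For Fas2 they were -2.25, -0.05 and -1.43. For Gapdh2 they were 2.62, 1.58 and -1.38, so that this enzyme was above the controls in the libraries labelled Sox14 RNAi and EcR-DN and below them in those labelled E75 RNAi.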

How the data were processed

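Poly(A) RNA of 1000 sorted cells per library was sequenced from its 3' ends by MARS-seq, per the labels' protocols. Tools listed without roles, per the submitters' processing notes, are HISAT 0.1.5, bcl2fastq and HOMER. The deposited values are a score, namely reads that the authors normalized and rounded to whole numbers, per the file headers. The method, the genome build and the use of strand or molecular barcodes are not given in the sources used here. Depth is therefore unknown, and no interval of counting error is given.

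Values were analysed as log2(value + 1) with limma 3.58.1 in R 4.3.3 (moderated test with a trend, group means over all 43 perturbation libraries and 16 groups, genes at 10 or more in at least 2 libraries, 8656 genes). Benjamini-Hochberg adjustment ran over these 8656 at a threshold of 0.05, and 20 called genes lay outside the 6870 described. Differences of effects came from the same fit. The developmental table, scaled separately, was fitted alone over 64 libraries. The fit was checked on simulated data. Correlations were computed in R, while overlaps in the annotation and summaries of lists and markers used Python 3.11.15 and pandas 2.3.3.

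Named genes were the target, the 15 largest increases and decreases among called genes whose groups did not overlap and whose higher mean reached 50, up to 6 called genes of each list by p, and the 6 smallest p-values of each difference of effects. The members and lists were chosen with earlier results of these data known.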

Additional observations from a re-analysis of the deposited data

Results flagged for a closer look

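For 11 genes the difference between RNAi-labelled and control libraries changed between stages by the test of the difference itself (limma). Relative to 0 h, the log2 difference at 6 h was higher by 3.07 for Sox14, 3.49 for Rab3-GEF and 2.58 for GstZ2. It was lower than at 0 h for Dscam2 (-2.83), CG13954 (-4.88) and CG32432 (-2.98). Without library A of 0 h these 6 differences were 3.02, 3.54, 2.37, -2.73, -4.59 and -2.89. Relative to 12 h, it was higher by 2.09 for GstZ2 and 3.33 for rgn, and lower for klg (-2.31), CG42342 (-1.86), sca (-3.31) and CG44422 (-4.40).

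In unperturbed γ neurons at 6 h, 1 of the 4 libraries held klg at 357, while the others lay between 279 and 284. Chance sets about 1 in 20 groups of 4 apart in this way.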

How the results depend on the processing

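Each single omission of a 6 h library gave 291 to 400 calls for Sox14 RNAi against control (498 with all, 535 without library A of 0 h), 107 to 191 for the difference to 0 h (214), 35 to 87 for the difference to 12 h (93) and 521 to 573 against EcR-DN (690). With only the libraries of the groups compared, these counts were 298, 71, 142 and 726, and the 0 h difference gave 131 with only control and Sox14 RNAi libraries and 138 without library A of 0 h, an alternative chosen after seeing the data. Developmental calls numbered 966, and 800 to 946 without 1 library. Under other filters, pseudocounts, scalings and robust fits these totals stayed within 1.5 times. Counts of single lists did not always: the robust fit gave 6 glycolytic increases for 11, 3 Kenyon cell decreases for 7, 5 receptor decreases for 8, 3 channel increases for 5, 1 cytoskeletal increase for 3 and 1 ribosomal decrease for 4. Only control and Sox14 RNAi libraries left 1 receptor decrease, 3 of 6 ecdysone decreases and 3 of 5 dpr and DIP decreases. With the replicate letter as a block 478 genes were called, 465 of them shared, against 498. Letters A and C are the 2 shared ones, and deviations of same-lettered samples correlated at 0.08 and 0.09. The deviations of 2 controls from their mean mirror each other, so these values are not independent checks. They cannot settle whether the letters pair the samples, and the letters were not taken to do so.

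Of 115 named genes called, 44 kept the call under every alternative they were tested in, 14 lost it only on the 5 libraries alone, and none changed sign. The lone control left by an omission is assumed to vary like the other groups. Uncalled genes changed sign, and the cause was not tested. For sals the log2 difference was 0.0041 by quantile normalization, and single omissions gave -0.28 to 0.15 (0.15 without control C, 0.0097 and 0.12 without RNAi-labelled A and C). Omissions gave -0.17 to 0.19 for CG42322 (-0.17 without control A, -0.11 without RNAi-labelled C), -0.064 to 0.11 for EcR (-0.027 without RNAi-labelled B) and -0.031 to 0.40 for Sox14 (-0.031 without RNAi-labelled A).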
